A study of Mus musculus with 10 samples.

Results

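Genes of glycolysis, glycogen use and glucose transport were examined in gastrocnemius muscle of D257A and WT mice. The members were 36 genes listed by symbol and placed in 5 groups, namely glucose entry, glycolysis, lactate, glycogen synthesis and glycogen breakdown, and every probe set naming exactly 1 of these symbols was taken. Of the 36 genes, 33 had such a probe set, 66 probe sets of the 45101 on the array and 33 genes of the 18193 with a probe set of their own. Gpi1, Pfkfb1 and Eno1 had none and were not analysed here. The 4 probe sets that name a member together with another gene were not used, and the 3 probe sets of Gapdh are array controls that were described but not tested.

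The arrays, Affymetrix Mouse Genome 430 2.0 chips, held total RNA from 5 male D257A mice (PolgD257A/D257A) and 5 male WT mice (Polg+/+), all aged 13 months, with 1 mouse per array and no treatment. Polg encodes the polymerase that copies mitochondrial DNA. In D257A mice both of its alleles code for an enzyme that corrects its copying errors poorly, and mutations build up in mitochondrial DNA with age. The mutation is inherited through the germline, so that muscle fibers and all other cells of the muscle carry it. The mice came from a mixed background that had been backcrossed into C57Bl/6J.

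Muscle takes up glucose through membrane carriers of the Slc2a family, traps it with a hexokinase, and either stores it as glycogen or splits it through glycolysis to pyruvate and lactate. Glycogen is built by a synthase on a glycogenin core and broken down by a phosphorylase, which phosphorylase kinase switches on when calcium or adrenaline calls for fuel. Fast fibers, which make up most of the gastrocnemius, are known for strong glycolysis and large glycogen use.

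Signals are given on a linear scale after each array was brought to a trimmed mean of 500. Each log2 fold change is the D257A mean minus the WT mean, with the standard error (SE) of limma. This method fits a linear model to each probe set and moderates its variance with those of all tested probe sets. A probe set was tested when its mean log2 signal exceeded 6.26, the level of the dimmest tested probe set, and was called at a Benjamini-Hochberg adjusted p under 0.05 over the 22518 probe sets tested. Each gene is represented by its brightest own probe set unless stated otherwise. Values in single mice are listed in the order 2-17M, 2-21M, 2-25M, 2-27M and 2-30M for D257A and 1-12M, 1-13M, 2-3M, 2-32M and 3-18M for WT.

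Before scaling, the trimmed means of the 10 arrays ranged from 93.4 to 129, the last being that of WT mouse 1-13M. After scaling, the highest signal on its array was 56442, against 57396.5 to 71347 on the others. WT mouse 1-13M read unlike its genotype in many genes, and the part of its array in this was not tested. Among the 31 member genes tested, this mouse was the lowest of the 5 WT mice for 15 and the highest for 5. Without it Hk2 and Ldhb were also called lower and Fbp2 higher, and values without it are given for these genes and for others that it moved. Of 9 muscle fiber markers 9 were tested and 2 were called lower (22.2%, against 3.52% of all genes tested). Of 10 cochlear markers, checked because a line of the labels' RNA protocol names that tissue, 8 lay below the level needed for testing. Of 11 fast fiber and 10 slow fiber markers 0 were called by limma in either direction, and 4 slow and 0 fast markers were higher at an unadjusted p under 0.05. Their summed signals overlapped between genotypes, at 578162 to 628343 in D257A against 506191 to 657066 in WT for the fast list and 96333 to 144716 against 69997 to 124388 for the slow list. Of 10 macrophage markers 9 were tested and 5 were called higher (55.6%, against 3.71% of all genes tested). Their summed signal lay between 9973 and 14863 in the D257A group and between 7685 and 8796 in the WT group, without overlap. The dimmest of them, Itgam, was below the level needed for testing. Of 6 fibroblast markers tested, 3 were called lower (50%, against 3.52% of all genes), and all 6 had negative log2 fold changes, with a median of -1.14. Their sums overlapped, at 20754 to 24680 in D257A against 20819 to 34094 in WT. Of 5 adipocyte markers tested 1 was higher (20%, against 3.71% of all genes tested). Of 6 satellite cell, 3 Schwann cell and 1 red blood cell markers tested 0 were called, with 1 lower and 2 higher at an unadjusted p under 0.05. Without mouse 1-13M, 1 slow fiber, 1 endothelial and 1 red blood cell marker were called higher, 4 fibroblast markers were lower, and 1 adipocyte marker was lower and 1 higher. Among all genes of that fit 8.33% were lower and 7.76% higher. The median log2 fold change of the adipocyte markers went from 0.30 to -0.18. The part of these other cells in the results below was not tested. In whole muscle, fewer cells of a type and less RNA per cell cannot be told apart.

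Of the 31 member genes tested, 4 were lower and 5 were higher in D257A mice. The lower genes were the glucose carriers Slc2a1 and Slc2a4, glycogen synthase Gys1 and the phosphorylase kinase subunit Phka1. The higher genes were the glycolytic regulator Pfkfb3, the glycolytic enzyme Pgk1, glycogenin Gyg, the glycogen-targeting phosphatase subunit Ppp1r3c and the phosphorylase kinase subunit Phkb. The remaining 22 genes did not pass the test. These counts are 12.9% lower and 16.1% higher, against 3.52% lower and 3.71% higher among all 11216 genes tested in the same way. Over single probe sets, 9 of 57 (15.8%) were lower and 8 (14.0%) were higher, against 3.74% and 3.64% of all 22518. These belonged to 10 genes, the 9 above and Ldhb, whose brightest probe set did not pass while 3 others did. In 3 genes every D257A mouse was below every WT mouse and in 3 every D257A mouse was above, which is 9.68% each, against 3.47% and 3.93% of all genes. The median log2 fold change over the 31 genes was -0.08, against -0.01 over all genes tested. It was 0.06 when arrays were centred on their medians, a scaling under which the median of all genes was itself 0.12, and 0.03 without D257A mouse 2-17M. With single mice left out in turn, 3 to 6 genes were lower and 3 to 6 higher, while among all genes 1.53% to 8.33% were lower and 1.92% to 7.76% higher. With mouse numbers blocked by their leading digit, 2 member genes were lower and 3 higher, against 1.22% and 1.27% of all genes. That digit is 2 in all D257A mice but, among WT mice, only in 2-3M and 2-32M. Without WT mouse 1-13M, 6 member genes were lower and 6 were higher, against 8.33% and 7.76% of all genes.

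**Figure D1:**
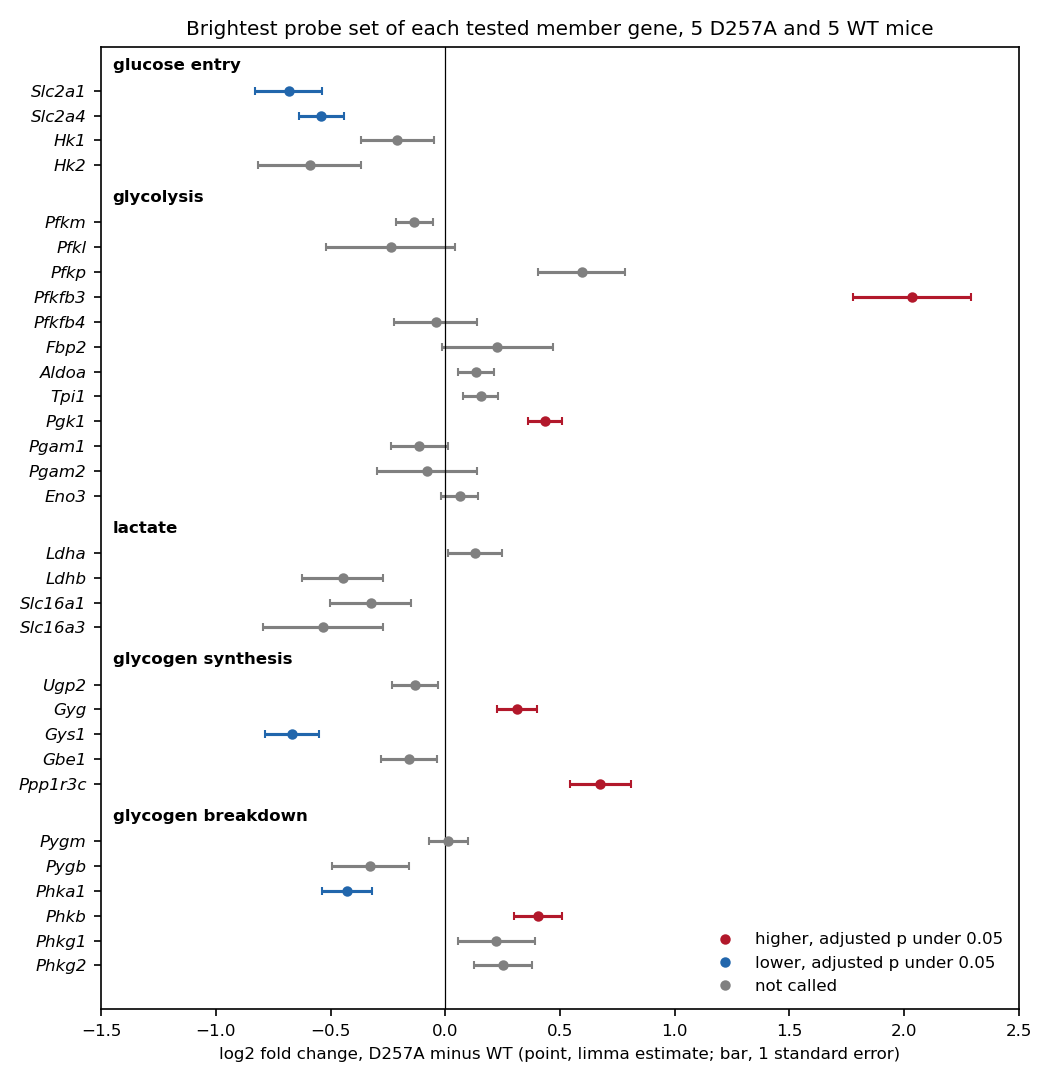
The plot of log2 fold changes shows each of the 31 tested member genes by group on the vertical axis and the log2 fold change, D257A minus WT, on the horizontal axis, with points for the limma estimate, bars for 1 SE, and color for the call at an adjusted p under 0.05. Slc2a1, Slc2a4, Gys1 and Phka1 lie to the left of 0, Pgk1, Gyg, Ppp1r3c and Phkb to the right, and Pfkfb3 farthest right at 2.03.

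Upstream sequences of the called genes are shown because these genes moved in both directions and each start site carries its own set of short motifs. RefSeq sequences of GRCm38.p6 were at hand for 9 of the 10 genes with a called probe set, at 10 start sites. Slc2a4 is named only. The 250 bases before the start site are printed in the direction of transcription, and capitals mark ACGTG, the core bound by hypoxia-inducible factors and contained in the E-box CACGTG, and GCGTG, both searched on either strand. CACGTG is its own reverse complement and therefore holds ACGTG on both strands. ACGTG was present at 5 of the 10 start sites, those of 4 genes, against 16.6% of 32851 promoters of the same length. GCGTG was present at 7, against 28.2%, and CACGTG at 2, against 6.02%. Among the 4 genes with ACGTG, Pfkfb3, Pgk1 and Ppp1r3c were higher and Slc2a1 was lower, so the motif was present in genes of either direction. Among the 7 genes with GCGTG, Gyg, Pfkfb3, Phkb and Ppp1r3c were higher and Ldhb, Phka1 and Slc2a1 were lower. Gyg, Ldhb, Phka1 and Phkb held GCGTG but not ACGTG, and their sequences are not printed. Gys1, which was lower, held neither motif in this window. The start sites shown are those of Pfkfb3 at chr2:11502091-11502340 and chr2:11553930-11554179 on the minus strand, Pgk1 at chrX:106186850-106187099 on the plus strand, Ppp1r3c at chr19:36736605-36736854 on the minus strand, Slc2a1 at chr4:119108495-119108744 on the plus strand and Gys1 at chr7:45434589-45434838 on the plus strand. A match is a description of letters and not a site.
Pfkfb3, the first start site: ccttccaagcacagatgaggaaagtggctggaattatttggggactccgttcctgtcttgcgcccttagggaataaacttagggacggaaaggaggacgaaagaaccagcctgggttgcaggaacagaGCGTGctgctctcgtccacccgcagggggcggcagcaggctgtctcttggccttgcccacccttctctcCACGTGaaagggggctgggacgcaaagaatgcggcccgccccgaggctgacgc
Pfkfb3, the second start site: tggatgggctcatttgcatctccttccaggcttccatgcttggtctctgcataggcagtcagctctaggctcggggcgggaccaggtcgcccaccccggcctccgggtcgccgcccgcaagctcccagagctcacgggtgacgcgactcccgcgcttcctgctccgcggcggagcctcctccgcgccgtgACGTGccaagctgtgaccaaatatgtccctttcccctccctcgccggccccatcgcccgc
Pgk1: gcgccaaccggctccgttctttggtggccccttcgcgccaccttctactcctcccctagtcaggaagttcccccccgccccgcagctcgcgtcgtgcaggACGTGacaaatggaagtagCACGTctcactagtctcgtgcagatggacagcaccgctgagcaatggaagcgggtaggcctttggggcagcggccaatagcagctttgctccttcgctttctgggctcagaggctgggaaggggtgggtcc
Ppp1r3c: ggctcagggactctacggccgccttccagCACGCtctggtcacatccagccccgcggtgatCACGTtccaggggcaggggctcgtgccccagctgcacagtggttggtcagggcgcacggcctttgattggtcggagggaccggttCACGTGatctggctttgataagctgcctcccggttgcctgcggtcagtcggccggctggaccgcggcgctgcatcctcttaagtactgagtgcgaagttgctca
Slc2a1: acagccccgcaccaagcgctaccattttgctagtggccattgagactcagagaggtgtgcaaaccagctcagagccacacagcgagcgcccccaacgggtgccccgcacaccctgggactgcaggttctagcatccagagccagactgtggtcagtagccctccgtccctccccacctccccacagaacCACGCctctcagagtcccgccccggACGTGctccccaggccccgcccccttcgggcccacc
Gys1: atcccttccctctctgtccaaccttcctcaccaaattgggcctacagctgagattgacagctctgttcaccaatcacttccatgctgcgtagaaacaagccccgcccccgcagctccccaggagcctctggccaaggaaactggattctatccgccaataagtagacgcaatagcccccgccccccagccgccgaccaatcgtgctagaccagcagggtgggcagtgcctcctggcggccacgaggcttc

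Both glucose carriers were lower in D257A mice, and neither hexokinase passed the test. Among the 4 genes of glucose entry the median log2 fold change was -0.57, and 2 of the 4 were called lower (50%, against 3.52% of all genes tested). Slc2a4 encodes GLUT4, the carrier that insulin and contraction bring to the fiber surface. Its signals were 7383, 8267, 6960.4, 8546 and 7399 in D257A mice and 11587, 10672, 12249, 12123 and 9524 in WT mice. The highest D257A mouse was below the lowest WT mouse, a 1.45-fold lower level with a log2 fold change of -0.54 ± 0.10 (limma adjusted p = 0.00524). A second probe set gave -0.72 ± 0.14 (adjusted p = 0.00763), with overlap of 1 WT mouse, 3-18M at 3807, and 1 D257A mouse, 2-21M at 3940.2. Slc2a4 was called lower under each of the 22 other settings tried.

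Slc2a1 encodes GLUT1, the carrier of basal glucose uptake, which endothelium and other cells of the muscle also use. It read 431, 513, 542, 599 and 713 in D257A mice against 793, 864, 815, 953 and 1025 in WT mice, again without overlap. The level was 1.61-fold lower (log2 -0.68 ± 0.15, adjusted p = 0.0136). The other 2 probe sets gave -0.48 (adjusted p = 0.0692) and -0.69 (adjusted p = 0.0648) and were not called. Of 8 endothelial markers tested, 0 were called by limma, 1 was higher at an unadjusted p under 0.05, and their sums of 5230 to 6216 in D257A and 5232 to 6343 in WT overlapped. Blocking mouse numbers by their leading digit and taking mice numbered 2 alone gave the same log2 fold change of -0.68. Both compare the D257A mice with WT mice 2-3M and 2-32M, the only WT mice with that digit. The limma adjusted p was 0.0875 when blocked and 0.0552 for mice numbered 2 alone.

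Hexokinase catalyses the first step inside the cell, with Hk2 as the form tied to insulin-responsive muscle. Hk2 signals were 6862, 8841, 8189.8, 9078 and 6636 in D257A mice and 14321, 5755, 13453, 13176 and 15879.9 in WT mice. All 5 D257A mice were below 4 of the WT mice, whereas WT mouse 1-13M at 5755 was below every D257A mouse. The log2 fold change was -0.59 ± 0.22 (adjusted p = 0.126) with all mice and -0.85 (adjusted p = 0.00018) without mouse 1-13M. Hk1 read 454, 261, 367, 339 and 390.4 against 431, 345, 447, 438 and 406, with overlap and a log2 fold change of -0.21 ± 0.16 (adjusted p = 0.46). A second Hk1 probe set was too dim to be tested.

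**Figure D2:**
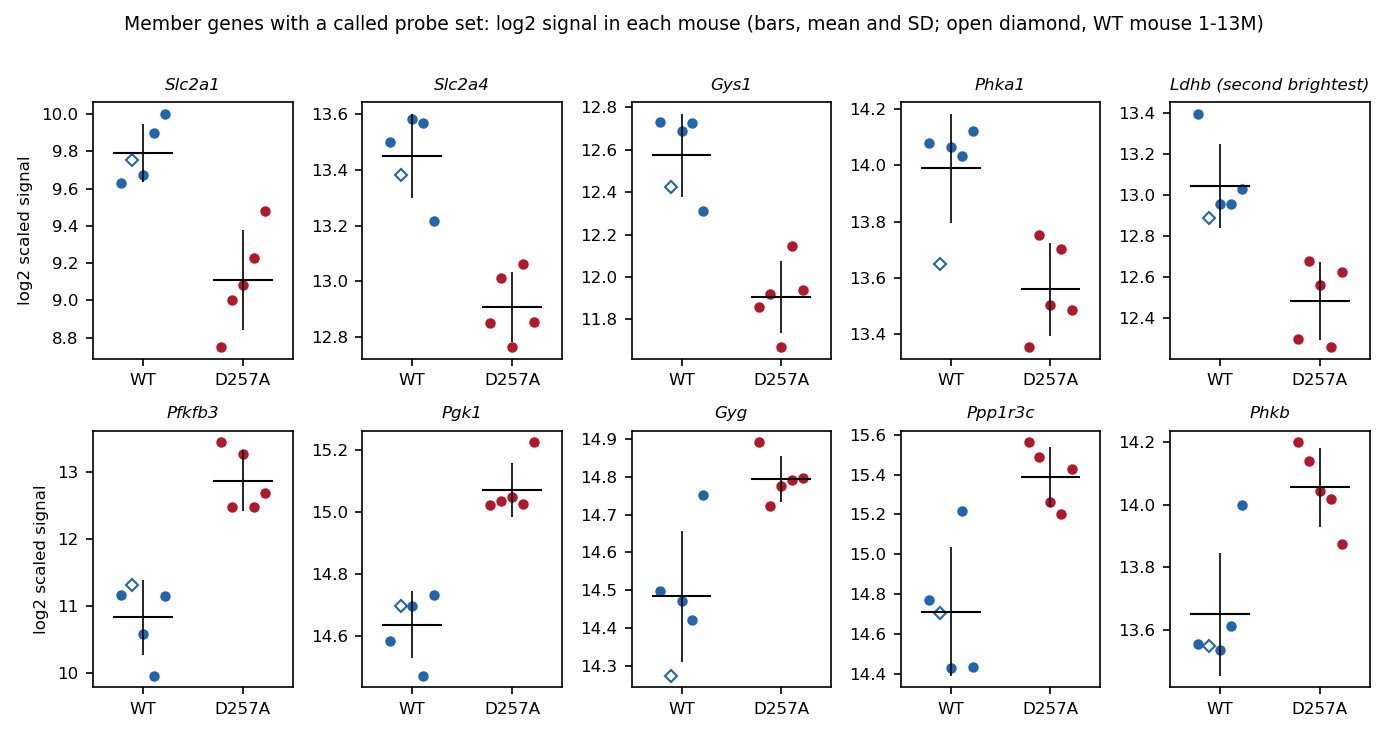
The plot of single mice shows the log2 scaled signal of the 10 member genes with a called probe set, 1 panel per gene with its own vertical axis, with blue points for 5 WT mice, red points for 5 D257A mice, an open diamond for WT mouse 1-13M, and black lines for the mean and SD. The 2 genotypes do not overlap for Slc2a1, Slc2a4, Gys1, Pfkfb3 and Pgk1 and for the Ldhb probe set shown, while 1 WT mouse reaches the D257A range for Phka1, Gyg, Ppp1r3c and Phkb.

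In glycolysis, Pfkfb3 and Pgk1 were higher in D257A mice (16.7%, against 3.71% of all genes tested) and the other 10 genes tested did not pass. The median log2 fold change of the 12 genes was 0.10, and 0 were lower, also at an unadjusted p under 0.05. Pfkfb3 encodes a bifunctional enzyme that mostly makes fructose 2,6-bisphosphate, the strongest known activator of phosphofructokinase. Its signals were 11109.6, 5698, 9826, 5674 and 6558 in D257A mice against 2293, 2535, 1530.0, 994 and 2269 in WT mice. The lowest D257A mouse was above the highest WT mouse, with a 4.10-fold higher level (log2 2.03 ± 0.26, adjusted p = 0.000689). This was the highest log2 fold change among the 31 member genes. The second probe set of Pfkfb3 read 917, 1033, 1847, 1119 and 1692 against 421, 1032, 372, 251 and 314 (log2 1.60 ± 0.32, adjusted p = 0.00944). There WT mouse 1-13M, at 1032, lay within the D257A range, and the other 4 WT mice lay below it. Pfkfb4, another enzyme of this family, ranged from 1609 to 2675 in D257A and from 1652 to 2918 in WT, with a log2 fold change of -0.04 ± 0.18 (adjusted p = 0.917). This value was 0.09 with arrays centred on their medians, where the median of all genes was 0.12.

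Pgk1 encodes phosphoglycerate kinase, which makes the first ATP of the pathway. It read 33291, 33522, 33875, 33318 and 38255 in D257A mice and 24523, 26532, 26542, 22697 and 27208 in WT mice, without overlap. The level was 1.35-fold higher (log2 0.44 ± 0.08, adjusted p = 0.00433). The 2 other probe sets of Pgk1 differed in size. One gave 23727, 19214, 25859, 26434 and 27858 against 5678, 14206, 13652, 10810.1 and 16325 (log2 1.10 ± 0.23, adjusted p = 0.0108), and the other gave 0.12 ± 0.10 (adjusted p = 0.516) with overlapping genotypes. Pfkfb3 and Pgk1 were called higher by their brightest probe set under each of the 22 other settings.

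Phosphofructokinase commits glucose to glycolysis, and its 3 subunits are encoded by Pfkm in muscle, Pfkl in liver and Pfkp in platelets and other cells. Pfkp read 294, 256, 224, 226 and 271 in D257A mice against 205, 122, 138, 216 and 177 in WT mice. The genotypes did not overlap, but the log2 fold change of 0.60 ± 0.19 missed the threshold (adjusted p = 0.0732). Pfkm read 32992, 38107, 37499.7, 41222 and 36889 against 46174, 38482, 41972, 37257 and 41303 (log2 -0.14 ± 0.08, adjusted p = 0.331), with the genotypes interleaved. Pfkl gave -0.24 ± 0.28 (adjusted p = 0.661), with D257A mouse 2-17M at 123 and all 9 other mice between 288 and 443. Fbp2, the muscle fructose bisphosphatase that runs the step in reverse, lay between 2310 and 3633 in the D257A group and between 1915 and 5355 in the WT group, where 5355 was mouse 1-13M. Its log2 fold change was 0.23 ± 0.24 (adjusted p = 0.612) with all mice and 0.49 (adjusted p = 0.0279) without mouse 1-13M.

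The enzymes of the lower part of the pathway had no called difference besides Pgk1. Aldolase A, Aldoa, which splits the hexose, read 59832, 59755, 61767, 59748 and 65400.4 in D257A and 64053, 49029, 56018, 50660.2 and 60655 in WT mice (log2 0.13 ± 0.08, adjusted p = 0.329). Its other probe sets gave -0.10 to 0.15 and were not called. The -0.10 came from the dimmest, at 10.7% to 15.7% of the highest signal of the array. Triose phosphate isomerase, Tpi1, read 40303, 40119.5, 39277, 43630.3 and 37930.1 against 39476, 31274, 37738, 35434 and 37272 (log2 0.15 ± 0.08, adjusted p = 0.239). In both genes the lowest of the 10 mice was WT mouse 1-13M, without which the log2 fold changes were 0.09 and 0.10. Muscle enolase, Eno3, gave a log2 fold change of 0.06 ± 0.08, which was -0.03 after quantile normalization. Phosphoglycerate mutases Pgam1 and Pgam2 gave -0.11 ± 0.13 and -0.08 ± 0.22. These were 0.02 and 0.06 with arrays centred on their medians, where the median of all genes was 0.12. Pgam2 in WT mouse 1-13M was 12820 against 27352 to 33205 in the other 4 WT mice, and without this mouse the log2 fold change was -0.33 (adjusted p = 0.0677). The control probe sets of Gapdh, made for 3 segments of its transcript, were not tested and ranged from 44014 to 58151 in D257A and from 37792 to 58664 in WT mice.

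Signals of the abundant enzymes lay near the top of the arrays. For 12 member probe sets of the 6 genes Pfkm, Aldoa, Tpi1, Gapdh, Eno3 and Pygm, the signal exceeded 50% of the highest signal of the array on all 10 arrays. Over the whole array 69 probe sets did so. For the brightest probe set of Aldoa it reached 86.9% to 96.0%. How far such bright signals shorten a fold change was not tested.

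**Figure D3:**
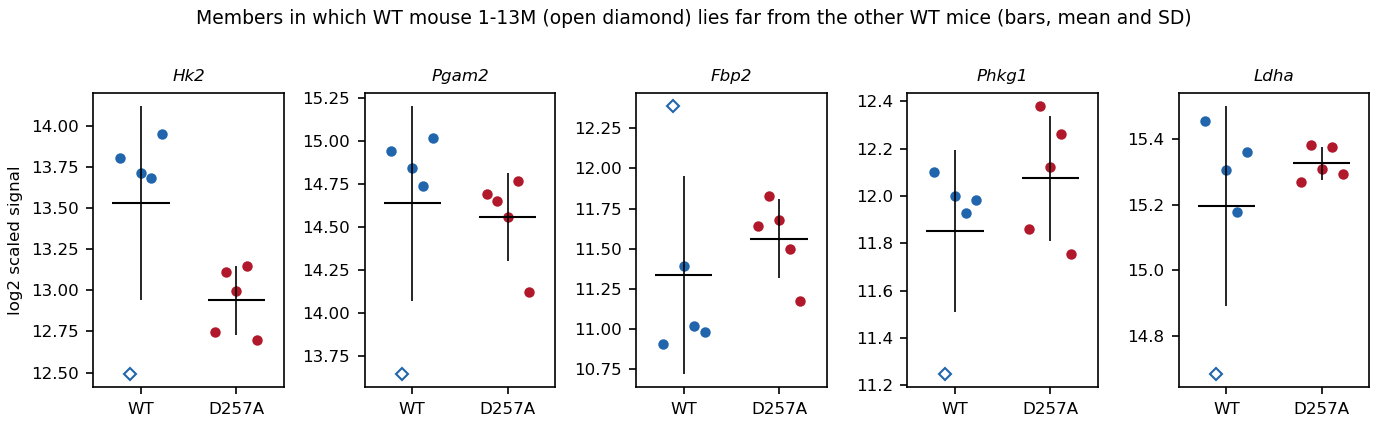
The plot of WT mouse 1-13M shows log2 scaled signals of Hk2, Pgam2, Fbp2, Phkg1 and Ldha, 1 panel per gene with its own vertical axis, with blue points for WT, red points for D257A, the open diamond for mouse 1-13M, and black lines for group mean and SD. The diamond lies below the other 4 WT mice for Hk2, Pgam2, Phkg1 and Ldha and above them for Fbp2.

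Of the 4 lactate genes 0 were called by their brightest probe set under limma, and 1, Ldhb, was lower at an unadjusted p under 0.05. Their median log2 fold change was -0.39. Lactate dehydrogenase turns pyruvate into lactate and back, with the A subunit abundant in fast muscle and the B subunit in heart and oxidative muscle. Ldha read 39525, 42699, 40643, 42518 and 40163 in D257A and 44916, 26293, 40479, 37054 and 42124 in WT mice, with a log2 fold change of 0.13 ± 0.12 (adjusted p = 0.549). Without WT mouse 1-13M it was 0.0016 (adjusted p = 0.991). Ldhb read 6512, 6918, 5781, 4333 and 7039 against 10982, 6118, 6491, 8541 and 10022 by its brightest probe set (log2 -0.45 ± 0.18, adjusted p = 0.141), where WT mice 1-13M and 2-3M lay within the D257A range. Without mouse 1-13M this probe set was called lower (log2 -0.55, adjusted p = 0.0321). The other 3 probe sets of Ldhb were called lower. The second brightest read 5036, 6553, 6032, 4901 and 6305 in D257A against 10768, 7566, 7946, 7928 and 8349.5 in WT mice, without overlap (log2 -0.56 ± 0.12, adjusted p = 0.0136). The remaining probe sets gave -0.57 ± 0.13 (adjusted p = 0.0211) and -0.63 ± 0.14 (adjusted p = 0.0171). With the mean over the 4 probe sets in place of the brightest one, Ldhb was lower by limma (log2 -0.55, adjusted p = 0.0244).

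The monocarboxylate carriers did not pass. Slc16a1, or MCT1, which serves lactate uptake in oxidative fibers, read 5803, 4550.5, 3125, 3465 and 4664 in D257A and 5829, 7286, 4449, 4363 and 5005 in WT mice (log2 -0.33 ± 0.18, adjusted p = 0.293). Slc16a3, or MCT4, which serves lactate export from glycolytic fibers, read 936, 2213, 1736, 2592 and 2019.7 against 2786, 1972, 3267, 3715 and 1802 (log2 -0.53 ± 0.26, adjusted p = 0.235). D257A mouse 2-17M lay at 936 and the other D257A mice between 1736 and 2592, and without mouse 2-17M the log2 fold change was -0.30 (adjusted p = 0.476).

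Genes of glycogen synthesis changed in opposite directions. Of 5 tested, Gys1 was lower (20%, against 3.52% of all genes tested) and Gyg and Ppp1r3c were higher (40%, against 3.71%). The group median was -0.13, against -0.01 over all genes. With arrays centred on their medians it was 0.0022, where the median of all genes was 0.12. Gys1, the muscle glycogen synthase that lengthens the chains, read 3711, 3873, 3258, 4532 and 3922 in D257A and 6786, 5486, 6593, 6765 and 5074 in WT mice. The genotypes did not overlap, and the level was 1.59-fold lower (log2 -0.67 ± 0.12, adjusted p = 0.00481). The second probe set read 757, 1147, 916, 1357 and 906 against 2135, 2105, 1721, 2727 and 1567, also without overlap (log2 -1.02 ± 0.18, adjusted p = 0.00481). Gys1 was called lower under each of the 22 other settings.

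Ppp1r3c encodes PTG, a subunit that brings protein phosphatase 1 to glycogen, where it activates the synthase. Its signals were 48346, 45982, 39377, 37732 and 44093 in D257A and 27991, 26733, 22103, 38106 and 22182 in WT mice. All D257A mice but 2-27M, at 37732, were above every WT mouse, and WT mouse 2-32M at 38106 was the only WT mouse in the D257A range. The level was 1.60-fold higher (log2 0.68 ± 0.13, adjusted p = 0.00862). A second probe set gave 0.74 ± 0.25 and was not called (adjusted p = 0.0929). Blocking by leading digit and taking mice numbered 2 alone, which rest on the same mice, gave the same change of 0.56. The adjusted p was 0.102 when blocked and 0.0647 for mice numbered 2 alone. Ppp1r3a, which codes for another glycogen-targeting subunit of the same phosphatase, was too dim to be tested, at 35.6 to 68.1 in D257A and 66.2 to 84.2 in WT mice.

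Gyg encodes glycogenin, the protein on which a glycogen particle starts. It read 30397, 27053, 28034, 28360.1 and 28455 in D257A and 23121, 19795, 22722, 21932 and 27615 in WT mice. WT mouse 3-18M at 27615 lay within the D257A range and the other WT mice lay below it. The log2 fold change was 0.31 ± 0.09 (adjusted p = 0.0441). The second probe set read 20960.5, 19262, 19595, 19778 and 18753 against 16714, 14944, 17180.2, 16364 and 16739 with no overlap (log2 0.26 ± 0.07, adjusted p = 0.0414). The call of the brightest probe set was lost under 13 of 22 other settings, with adjusted p up to 0.156. Leaving out any single mouse other than WT 1-13M or WT 3-18M ended it (adjusted p from 0.0632 to 0.112).

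The donor and branching steps of synthesis were not called. Ugp2, which makes the UDP-glucose donor, read 25633, 32256, 30904, 27608 and 37364 in D257A and 36105, 32289, 31294, 30816 and 36989 in WT mice (log2 -0.13 ± 0.10, adjusted p = 0.463). This value was 0.0022 with arrays centred on their medians, where the median of all genes was 0.12. The other 4 probe sets of Ugp2 had log2 fold changes from -0.32 to -0.14, and 0 of them were called. Gbe1, the branching enzyme, read 2272, 2770.3, 2005, 2313 and 2536 against 3004, 2309.5, 2803, 2309.7 and 2837 (log2 -0.16 ± 0.12, adjusted p = 0.469).

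In glycogen breakdown, 1 of the 6 genes tested was lower, 1 was higher, and both code for subunits of phosphorylase kinase. These are 16.7% each, against 3.52% lower and 3.71% higher among all genes tested. The group median was 0.12. Phka1, the regulatory alpha subunit of muscle, read 10479, 13801, 11613, 13335 and 11482 in D257A and 17313, 12839, 17125, 16763 and 17826 in WT mice. WT mouse 1-13M at 12839 lay within the D257A range and the other 4 WT mice lay above it. The log2 fold change was -0.43 ± 0.11 (adjusted p = 0.0296), and -0.51 (adjusted p = 0.00155) without that mouse. Its other 2 probe sets gave -0.37 (adjusted p = 0.212) and -0.50 (adjusted p = 0.0805) and were not called, and the call of the brightest was lost under 13 of 22 other settings. Leaving out any single mouse other than D257A 2-21M, D257A 2-27M or WT 1-13M ended it (adjusted p from 0.0521 to 0.0815).

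Phkb, the regulatory beta subunit, read 18804, 18057, 16880.3, 16599.9 and 15018 in D257A and 12054, 11979.8, 11889, 12542 and 16368 in WT mice. WT mouse 3-18M at 16368 lay within the D257A range. The log2 fold change was 0.40 ± 0.10 (adjusted p = 0.0303), and the call was lost under 11 of 22 other settings, among them each single mouse left out other than D257A 2-30M, WT 1-13M or WT 3-18M (adjusted p from 0.0538 to 0.0835). The catalytic gamma subunits did not pass. Phkg1, the muscle form, read 3719, 5323, 4452, 4905 and 3454 against 4394, 2433, 4098, 3900.3 and 4049 (log2 0.22 ± 0.17, adjusted p = 0.456), with mouse 1-13M the lowest at 2433, and 0.07 (adjusted p = 0.741) without that mouse. Phkg2 read 511, 443, 451, 455 and 394 against 337, 412, 363, 395 and 384 (log2 0.25 ± 0.13, adjusted p = 0.246).

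The phosphorylases themselves were not called. Pygm, the muscle phosphorylase, read 40048, 47113, 39478, 43034 and 42945 in D257A and 46824, 36974, 42088, 38518 and 46761 in WT mice, and its log2 fold change of 0.01 ± 0.08 (adjusted p = 0.944) was -0.05 after quantile normalization. Pygb, the brain form, read 232, 194, 179, 179 and 251 against 230.4, 228, 271, 331 and 239.8 (log2 -0.33 ± 0.17, adjusted p = 0.258).

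Isoforms of the same step were then compared within each array, which does not depend on a linear scaling. In each of 9 pairs the log2 signal of one form was subtracted from that of the muscle form, and the genotypes were then compared with an exact permutation test, 2-sided, which can give no p below 0.00794. The pair of Eno3 and Eno1 could not be formed. After Benjamini-Hochberg adjustment over the 9 pairs, 0 passed, and 2 had an unadjusted exact p under 0.05. A single pair at the lowest possible p would not pass after this adjustment. That 0 passed therefore does not show that the paired isoforms changed equally. Pfkm minus Pfkp was 0.73 lower on the log2 scale in D257A mice (-0.73, SD 0.27 in D257A and 0.36 in WT, n = 5 each, exact permutation p = 0.0159, adjusted p = 0.143). Ldha minus Ldhb was 0.58 higher (SD 0.31 and 0.25, n = 5 each, exact permutation p = 0.0317, adjusted p = 0.143). Pygm minus Pygb gave 0.34 (exact permutation p = 0.0952, adjusted p = 0.286). The pairs of Slc2a4 with Slc2a1, Hk2 with Hk1, Pfkm with Pfkl, Pgam2 with Pgam1, Slc16a3 with Slc16a1 and Phkg1 with Phkg2 had differences from -0.38 to 0.14, and the lowest exact permutation p among them was 0.246. These ratios say nothing of which form changed.

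Other genes of glucose use were read from 5 further lists. Of their 95 genes, 86 had a probe set of their own, 76 were tested, 3 were lower (3.95%) and 10 were higher (13.2%) in D257A mice, against 3.52% and 3.71% of all genes. The share of lower genes was thus near that of all genes. These lists had a median log2 fold change of 0.04, against -0.01 over all genes. In the list of glucose transport and insulin signalling, 1 of 22 genes was lower (4.55%) and 4 were higher (18.2%). Tbc1d4 and Tbc1d1 encode paired Rab GTPase-activating proteins that hold GLUT4 vesicles inside the cell until they are phosphorylated. Tbc1d4 read 6837, 4916, 6267, 5709 and 5156 in D257A and 2391, 4031, 3221, 2485 and 1766 in WT mice, without overlap (log2 1.10 ± 0.19, adjusted p = 0.00366). A dim second probe set of Tbc1d4 gave -0.01 ± 0.49, and with the mean of both the call was lost (log2 0.54, adjusted p = 0.254). Tbc1d1 went the other way, at 556, 954, 806, 685 and 575 against 1801, 800.1, 1129.5, 2283 and 1109.6 (log2 -0.92 ± 0.25, adjusted p = 0.0412), with WT mouse 1-13M within the D257A range. The call of Tbc1d1 was lost under 13 of 22 other settings.

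Insulin signal carriers were among the higher genes of that list. Pik3r1, the regulatory subunit of phosphoinositide 3-kinase, read 5919, 6849.8, 2857, 4055 and 4468 in D257A and 1526, 3467, 1419.8, 1995 and 1319 in WT mice (log2 1.35 ± 0.27, adjusted p = 0.00911). Irs1, the insulin receptor substrate, gave 0.80 ± 0.22 (adjusted p = 0.0371). Akt1, a kinase downstream of both, read 1463, 1649, 1459, 1584 and 1669 against 579, 1955, 592, 507 and 501 (log2 1.15 ± 0.30, adjusted p = 0.0331). For Akt1 the 4 other WT mice lay between 501 and 592 and WT mouse 1-13M, at 1955, was above every D257A mouse. The other probe sets of Akt1 gave 0.16 and -0.69 and were not called. The calls of Irs1 and Akt1 were each lost under 14 of 22 other settings.

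Of 20 regulators of glucose use 0 were lower and 4 were higher (20%, against 3.71% of all genes tested). Arrdc4, an arrestin-like protein induced by sugar that lowers glucose uptake, read 1390.3, 916, 872, 1037 and 736 in D257A and 199, 336, 197, 245 and 248 in WT mice. No WT mouse reached the lowest D257A mouse, and the level was 4.02-fold higher (log2 2.01 ± 0.19, adjusted p = 9.45e-05). Mlxip, or MondoA, the glucose-sensing transcription factor of muscle, read 4595, 4676, 3359, 3567 and 3921 against 3044, 2880.4, 2752, 3078 and 2028, without overlap (log2 0.55 ± 0.14, adjusted p = 0.0288). Myc gave 1.46 ± 0.36 (adjusted p = 0.0274), and Prkab2, a subunit of the energy sensor AMPK, gave 0.41 ± 0.12 (adjusted p = 0.0496). Arrdc4 was called under each of the 22 other settings, while the call was lost under 9 for Mlxip, 10 of 21 for Myc and 16 for Prkab2.

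The pentose phosphate pathway branches off at glucose 6-phosphate and yields NADPH and ribose. Of 7 genes tested 0 were lower and 2 were higher (28.6%, against 3.71% of all genes tested), with a median log2 fold change of 0.56. Tkt, transketolase, read 4663, 2913, 3345, 3818 and 4152 in D257A and 1109, 748, 1316, 1324 and 1299 in WT mice. Its level was 3.29-fold higher without overlap (log2 1.72 ± 0.17, adjusted p = 0.000169), and a second probe set gave 1.28 ± 0.20 (adjusted p = 0.00223). H6pd, the first dehydrogenase of the branch inside the endoplasmic reticulum, read 1677, 1700.1, 1484, 1542 and 1658 against 1147, 1176, 1008, 1007 and 1031, without overlap (log2 0.59 ± 0.11, adjusted p = 0.00522). The summed signal of the 7 genes ranged from 12081 to 14990 in D257A and from 8884 to 9828 in WT mice. Of the 9 macrophage markers tested 5 were higher as well, with the sums given above, and their part was not tested.

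The remaining lists held 1 called gene each, both lower. This is 11.1% of the other glycolysis genes tested and 5.56% of the other glycogen genes, against 3.52% of all genes tested. Among 9 other glycolysis genes Ldhd, a mitochondrial dehydrogenase of D-lactate, was lower, at 245, 332, 342, 413 and 251 in D257A and 733, 591, 731, 669.6 and 591 in WT mice, without overlap (log2 -1.09 ± 0.16, adjusted p = 0.002). Among 18 other glycogen genes Pgm5, a relative of phosphoglucomutase found at cell contacts, was lower (log2 -0.70 ± 0.19, adjusted p = 0.0385), a call lost under 13 of 21 other settings, while Ldhd was called under all 22. Without WT mouse 1-13M the counts were 0 lower and 4 higher of 7 genes for the pentose phosphate pathway, 1 lower and 6 higher of 20 for the regulators, 1 lower and 4 higher of 22 for glucose transport, 1 lower and 0 higher of 9 for other glycolysis genes and 2 lower and 0 higher of 18 for other glycogen genes. Among all genes of that fit 8.33% were lower and 7.76% higher. The 1 lower gene of the transport list and the 1 among the regulators are too few to set against that share.

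**Figure D4:**
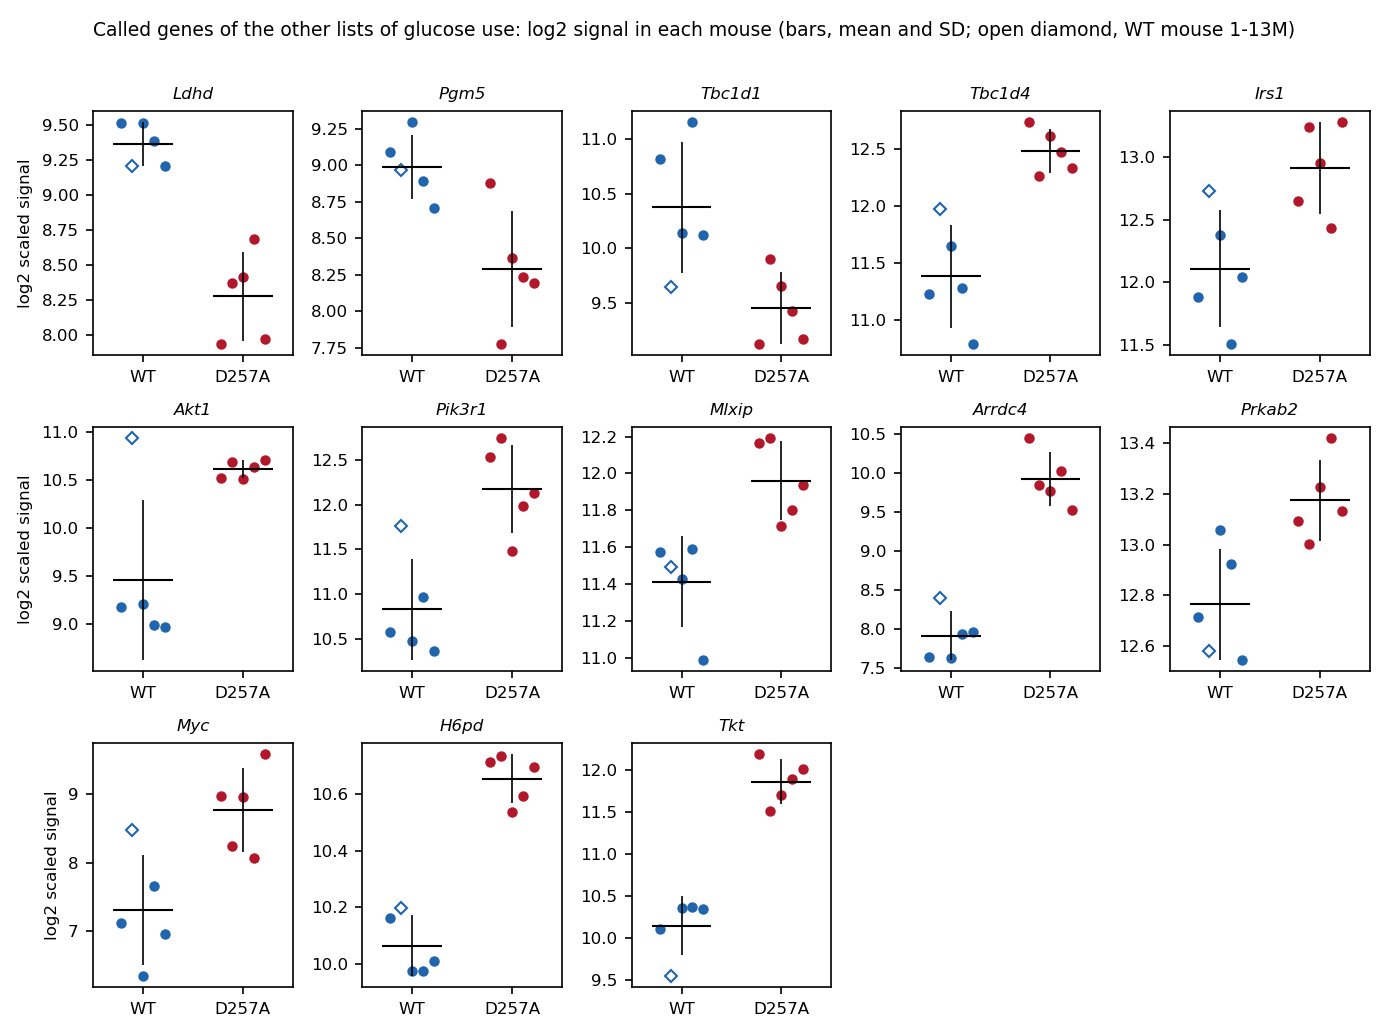
The plot of the other lists shows the log2 scaled signal of the 13 called genes in each mouse, 1 panel per gene with its own vertical axis, with blue points for WT, red points for D257A, an open diamond for WT mouse 1-13M, and black lines for the mean and SD. The genotypes do not overlap for Ldhd, Tbc1d4, Mlxip, Arrdc4, H6pd and Tkt, and the diamond lies above all D257A mice for Akt1.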

How the data were processed

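Total RNA from gastrocnemius of 5 D257A and 5 WT mice was hybridized to 10 arrays. The deposited intensity values, linear signals of which each probe set has 1 in each mouse, were made by the authors with GCOS 1.3 per the labels. The study's methods state scaling to 500, but the deposited trimmed means (2% left out at each end) were 93.4 to 129, so each array was multiplied to bring this mean to 500. Of 45037 probe sets other than controls, the 22518 brighter than the median were tested on log2 with limma 3.58.1 in R 4.3.3 (lmFit, eBayes with trend) and adjusted by Benjamini-Hochberg. This filter does not use genotype. Of the probe sets, 34958 name 1 gene, 932 several and 9211 none. The fit was tested on simulated data, and the permutation test was checked on made-up values with a known answer. Python 3.11.15, NumPy 2.4.6, pandas 2.3.3 and matplotlib 3.10.9 made tables and figures.

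The members, lists and tests were chosen with earlier results of these data known. Every member is accounted for. Values in single mice were to be given for members with a called probe set and for up to 4 more per group with the smallest p. Of each other list, up to 6 called genes were named. Alternatives were quantile normalization, centring on array medians, no scaling, no filter, the 11259 brightest probe sets, eBayes without trend, array weights, an offset of 32, the methods' t-test with Benjamini-Hochberg, mice numbered 2 alone, mouse numbers blocked by their leading digit, the mean of a gene's probe sets, and each mouse left out in turn. No source used here says what that digit stands for. It is 2 in all D257A mice and in WT mice 2-3M and 2-32M only, so it is partly confounded with genotype. The number of arrays limits precision. Upstream sequences are from RefSeq, GRCm38.p6. The other ages and the protein and enzyme measurements were not analysed here.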

Additional observations from a re-analysis of the deposited data

Results flagged for a closer look

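Among 62 sets of 5 mice, 1 per tested member gene and genotype, 7 held a mouse far from the other 4, where about 1 in 20 would be flagged by chance. The measure is the gap to the nearest other mouse divided by the range of the 5 on the log2 scale. WT mouse 1-13M was that mouse in 4 sets. Its Hk2 signal was 5755 against 13176 to 15880 in the other WT mice (gap 0.816 of the range). For Pgam2 it was 12820 against 27352 to 33205 (0.796), for Phka1 12839 against 16763 to 17826 (0.812), and for Phkg1 2433 against 3900.3 to 4394 (0.798). In WT mouse 3-18M, Phkb was 16368 against 11889 to 12542 (0.833). In D257A mice, Pfkl of mouse 2-17M was 123 against 345 to 419 (0.842), and Pgk1 of mouse 2-30M was 38255 against 33291 to 33875 (0.875).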

How the results depend on the processing

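Slc2a4, Gys1, Pfkfb3 and Pgk1 kept their direction and their call under each of 22 alternatives, Slc2a1 lost its call under 2, Ppp1r3c under 3, Phkb under 11, and Gyg and Phka1 under 13 each, all with the same direction. The cause was not tested. The count of higher member genes, 5 in the analysis as reported, was 3 with no scaling, no filter, no trend or the leading digit as a block (1.60%, 1.57%, 2.23% and 1.27% of all genes), 2 with the methods' t-test (2.34%) and 6 with arrays centred on their medians (7.49%). The count of lower genes, 4 as reported, was 7 with array weights, where 9.30% of all genes were lower and 8.89% higher, and 2 with the digit block, where 1.22% were lower. With each mouse left out in turn, 3 to 6 genes were lower, 3 to 6 were higher, and the median log2 fold change ran from -0.12 to 0.0347. In these and all other alternatives run for the pairs 0 isoform pairs passed, though a single pair could not have passed there either. Hk2 and Ldhb gained a call under 3 alternatives each, and Fbp2, Pfkp and Slc16a3 under 1 each. The median moved from -0.0788 to 0.0550 with arrays centred on their medians, while that of all genes moved from -0.01 to 0.12. Signs turned only in differences that were not called. After quantile normalization these were Eno3 (-0.0272), Pygm (-0.0513), Pfkm against Pfkl (-0.0335) and Pgam2 against Pgam1 (-0.0501). With no scaling they were Eno3 (-0.0118) and Pygm (-0.0604), with array weights Pygm (-0.00018), with arrays centred on their medians Pfkfb4 (0.0919), Pgam1 (0.0205), Pgam2 (0.0550) and Ugp2 (0.0022), with mice numbered 2 alone Pgam2 against Pgam1 (-0.0810), and with the mean of a gene's probe sets Slc2a4 against Slc2a1 (-0.0126). With each mouse left out, the log2 differences ranged from -0.36 to 0.0825 for Pfkl, -0.14 to 0.0622 for Pfkfb4, -0.0325 to 0.0527 for Pygm, -0.33 to 0.0307 for Pgam2, -0.0069 to 0.10 for Eno3, -0.17 to 0.22 for Pfkm against Pfkl, -0.43 to 0.14 for Slc16a3 against Slc16a1, -0.21 to 0.0734 for Phkg1 against Phkg2 and -0.24 to 0.16 for Pgam2 against Pgam1. Dim signals and 5 mice per genotype limit what could be detected.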

Other observations

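Some genes of the other lists narrowly missed the threshold of the test and are named here after their values were seen. In the pentose phosphate pathway Rpia, which makes ribose 5-phosphate, had a log2 fold change of 0.56 (limma adjusted p = 0.0585), and Pgd, which makes NADPH, had 0.63 (adjusted p = 0.0885). Txnip, the arrestin-like relative of Arrdc4, had 0.52 (adjusted p = 0.0592). Stbd1, a protein that tethers glycogen to membranes, had 0.51 (adjusted p = 0.0641). As a sign of RNA quality, the 3' control segment of Gapdh was set against the 5' segment, and their log2 ratio lay between -0.29 and -0.20 in the D257A group and between -0.33 and -0.26 in the WT group. The same log2 ratio for the actin control spread more widely, from -0.52 to -0.26 in D257A and from -0.61 to -0.0227 in WT mice, with WT mouse 2-32M the highest at -0.0227 and the other WT mice at -0.28 or below.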
